A study of Homo sapiens with 12 samples.

Results

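The genes described here are 52 components of the DNA replication machinery, from the proteins that mark origins and load the replicative helicase to the polymerases, the sliding clamp and its loader, single-strand binding, nucleotide supply, fork protection and replication-coupled chromatin assembly. They were listed by gene symbol and role, with earlier results of these data known, and each was found in the deposited table by its Ensembl ID, so that 52 of 20738 rows are described. All 52 passed the filter on low counts in both cell lines, and none was dropped.

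The data are 12 RNA-seq libraries of UM-SCC-47 and UPCI-SCC-090, established cell lines from human papillomavirus-positive head and neck squamous cell carcinoma (HPV+ HNSCC). JQ1 was given at 500 nM over 72 h, the vehicle was 0.1% DMSO, and each of the 4 groups has 3 libraries. JQ1 occupies the acetyl-lysine pockets of the BET bromodomain proteins and so releases them from acetylated chromatin. Each line stands for 1 tumor, 1 dose and 1 time were used, and no source read here says whether the replicates were separate cultures, so the p-values measure a spread that may be technical.

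Libraries held 20349275 to 30788657 estimated counts, and levels are given as CPM (counts scaled to the library total) after TMM scaling within each line. Of the markers of squamous epithelium, CDH1, EPCAM, TP63 and KRT17 were above 38 CPM in every library of both lines. KRT5 and KRT14 were at 6.13 to 10.1 and 0.678 to 1.87 CPM in UPCI-SCC-090, where KRT17 was at 61.8 to 104 CPM. Of 11 markers of leukocytes, endothelium and fibroblasts, 7 were under 1 CPM in every library of each line, with CD3E at 0 in UM-SCC-47 and LUM at 0 in UPCI-SCC-090. Among the others were COL1A1 (4.58 to 13.6 CPM), CD14 (2.69 to 7.04), CDH5 (2.01 to 7.64) and PTPRC (0.926 to 2.97) in UM-SCC-47, and COL1A1 (2.10 to 28.3), CD14 (0.247 to 5.00) and PTPRC (0.355 to 1.11) in UPCI-SCC-090. Genes rich and poor in GC were measured unevenly among libraries. The slope of a library's log2 CPM, centred on its own line, was −0.46 per 10 percentage points of transcript GC for JQ1 replicate 3 of UM-SCC-47. For UPCI-SCC-090 it was 0.60 for the second DMSO library and −0.65 for the third JQ1 library, and for the other 9 libraries it lay between −0.26 and 0.40. The share of counts in ribosomal protein genes was 4.59% to 6.25% with DMSO and 11.4% to 12.2% with JQ1 in UPCI-SCC-090, and 6.64% to 7.01% and 6.79% to 9.73% in UM-SCC-47. Its part in the results was not tested.

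Replication starts in 2 separated steps. In late mitosis and G1 the origin recognition complex, CDC6 and CDT1 load rings of MCM2 to MCM7 onto DNA, which is called licensing, and geminin (GMNN) and the degradation of CDT1 prevent a further round. In S phase the kinase CDC7 with DBF4, together with cyclin-dependent kinase, recruits CDC45 and the GINS complex (GINS1 to GINS4) to the MCM ring to form the active CMG helicase, behind which polymerases α, δ and ε, the PCNA clamp and the RFC clamp loader copy the strands. Transcription of many of these genes rises at the G1 to S boundary through E2F factors, and high-risk HPV E7 protein is known for releasing E2F from the retinoblastoma protein.

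Of the 52 genes, 46 had a promoter window in RefSeq (GRCh38.p14, 250 bases before to 50 bases after a gene start), and these genes had 59 windows in all. The core words of the E2F element, searched as TTTCCCGC, TTTCGCGC, TTTGCCGC and TTTGGCGC on both strands, were in 23 of the 59 windows (39.0%), compared with 3.31% of all 35116 windows and 4.10% of the 22199 windows of protein-coding genes. The windows of the set were also richer in GC, with a median of 64.7% against 58.7% over all windows and 62.3% over those of protein-coding genes. CCAAT was in 55.9% of the windows of the set and 34.6% of all, and the word TTTGAA of the CHR element was in 3.39% and 15.2%. The 250 bases before the start are shown for 4 genes that responded differently to JQ1, 5′ to 3′ on the strand of the gene, with E2F words in capitals. MCM6 (chr2:135876444-135876693, minus strand) has 4 such words as 2 overlapping pairs and CDT1 (chr16:88803539-88803788, plus strand) has 1. PCNA (chr20:5126623-5126872, minus strand) has 1, and ORC1 (chr1:52404424-52404673, minus strand) has none of these letters in the window.
MCM6: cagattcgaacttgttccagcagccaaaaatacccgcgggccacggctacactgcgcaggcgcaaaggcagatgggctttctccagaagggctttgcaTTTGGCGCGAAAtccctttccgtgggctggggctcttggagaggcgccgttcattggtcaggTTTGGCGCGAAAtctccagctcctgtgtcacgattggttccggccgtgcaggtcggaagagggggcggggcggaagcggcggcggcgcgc
CDT1: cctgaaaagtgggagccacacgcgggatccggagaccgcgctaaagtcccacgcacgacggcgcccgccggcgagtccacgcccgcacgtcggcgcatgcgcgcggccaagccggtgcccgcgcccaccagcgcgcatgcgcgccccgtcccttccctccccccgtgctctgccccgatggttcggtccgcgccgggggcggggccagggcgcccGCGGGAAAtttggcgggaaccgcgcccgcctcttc
PCNA: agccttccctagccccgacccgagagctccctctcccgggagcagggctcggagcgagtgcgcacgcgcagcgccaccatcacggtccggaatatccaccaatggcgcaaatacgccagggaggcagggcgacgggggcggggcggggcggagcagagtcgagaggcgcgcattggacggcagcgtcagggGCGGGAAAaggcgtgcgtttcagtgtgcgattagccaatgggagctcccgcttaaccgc
ORC1: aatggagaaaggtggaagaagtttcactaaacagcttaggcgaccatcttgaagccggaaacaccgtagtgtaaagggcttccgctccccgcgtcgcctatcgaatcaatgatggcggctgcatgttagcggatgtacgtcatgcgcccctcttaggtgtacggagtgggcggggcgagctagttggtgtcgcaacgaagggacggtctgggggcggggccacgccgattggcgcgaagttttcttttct

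These 4 genes were picked for their different responses, so they say nothing of whether the words go with the response. CDT1 fell in both lines, ORC1 without a word fell in both lines, PCNA with a word was called in neither line, and MCM6 with 4 words fell in UM-SCC-47 alone. Over the set, the 23 genes with a word had a median log2 fold change of −1.58 in UM-SCC-47 and −1.13 in UPCI-SCC-090, and the 23 without one had medians of −1.49 and −1.08. A match is a description of the letters and not of bound protein.

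With JQ1, most of the replication genes fell in UM-SCC-47 and 23 of these genes also fell in UPCI-SCC-090. In UM-SCC-47, 39 of 52 were lower, 1 was higher and 12 were not called, with a median log2 fold change of −1.58, whereas the median over all 13440 genes tested was −0.03. The background there is 25.5% of all genes called lower and 16.1% called higher, at an adjusted p under 0.05 in edgeR's quasi-likelihood test with Benjamini-Hochberg adjustment. In UPCI-SCC-090, 23 of 52 were lower, 0 were higher and 29 were not called, with a median of −1.10 against −0.14 over 13150 genes, and 20.4% of all genes were called lower and 7.67% higher. At an unadjusted p under 0.05 the count in UPCI-SCC-090, in either direction, was 31, and the share of all genes at that threshold is not given here. In this bulk RNA a smaller share of cells in S phase and less RNA of these genes per cell cannot be told apart.

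The 23 genes called in UPCI-SCC-090 were all among the 39 called in UM-SCC-47, and 12 genes were called in neither line. Over all genes tested in both lines, 13.1% were called lower in both. All 3 JQ1 libraries were below all 3 DMSO libraries for 41 of the 52 genes in UM-SCC-47, where 32.9% of all genes showed this, and for 30 in UPCI-SCC-090, where 29.1% did. Across the 52 genes the log2 fold changes of the lines, which have separate controls, had r = 0.82 and rho = 0.83, and these points share the libraries of each line and the GC content of the genes. Summed over the set, the level was 5911 ± 90.8 CPM with DMSO and 2176 ± 140 CPM with JQ1 in UM-SCC-47 (mean ± SD, n = 3), and 7914 ± 510 and 4267 ± 317 CPM in UPCI-SCC-090.

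Which genes were called in UPCI-SCC-090 depended on the libraries fitted, and 7 of the 23 calls held in every alternative. Without UPCI-SCC-090 DMSO replicate 2 and JQ1 replicate 3, its libraries with the steep GC trends, 18 genes were lower there. Of these 9 were among the 23 and 9 were not, and 16.5% of all genes were lower. That fit has fewer libraries in each group, so the loss of replicates and the removal of the GC trends cannot be told apart. The 9 that kept the call were CDT1, CDC45, GINS1, GINS4, POLD1, POLE, RRM2, TK1 and CHAF1A. Without UM-SCC-47 JQ1 replicate 3, 43 genes were lower in that line, and 26.5% of all genes. Single libraries mattered as well, with 7 genes called in UPCI-SCC-090 without JQ1 replicate 1, 12 without JQ1 replicate 3, 14 without DMSO replicate 3 and 15 without DMSO replicate 2. The share of all genes called lower was 7.52%, 12.1%, 13.0% and 13.3% in the same order, so the counts moved with the background of 20.4%. With the RLE size factors in place of TMM, 11 of the 23 kept their call in UPCI-SCC-090, where 13.3% of all genes were then lower, and over all genes there the share of calls that were higher was 42.3% instead of 27.4%, and 17.1% by library size alone. In UM-SCC-47 it was 24.1% by library size alone and 38.7% with TMM. The median of all genes moved from −0.14 to 0.14 with RLE in UPCI-SCC-090 and from −0.03 to 0.12 in UM-SCC-47. Relative to the median of all genes, the median of the set was −1.54 to −1.55 in UM-SCC-47 and −0.96 to −0.97 in UPCI-SCC-090 under TMM, RLE, upper-quartile and library-size scaling.

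**Figure D1:**
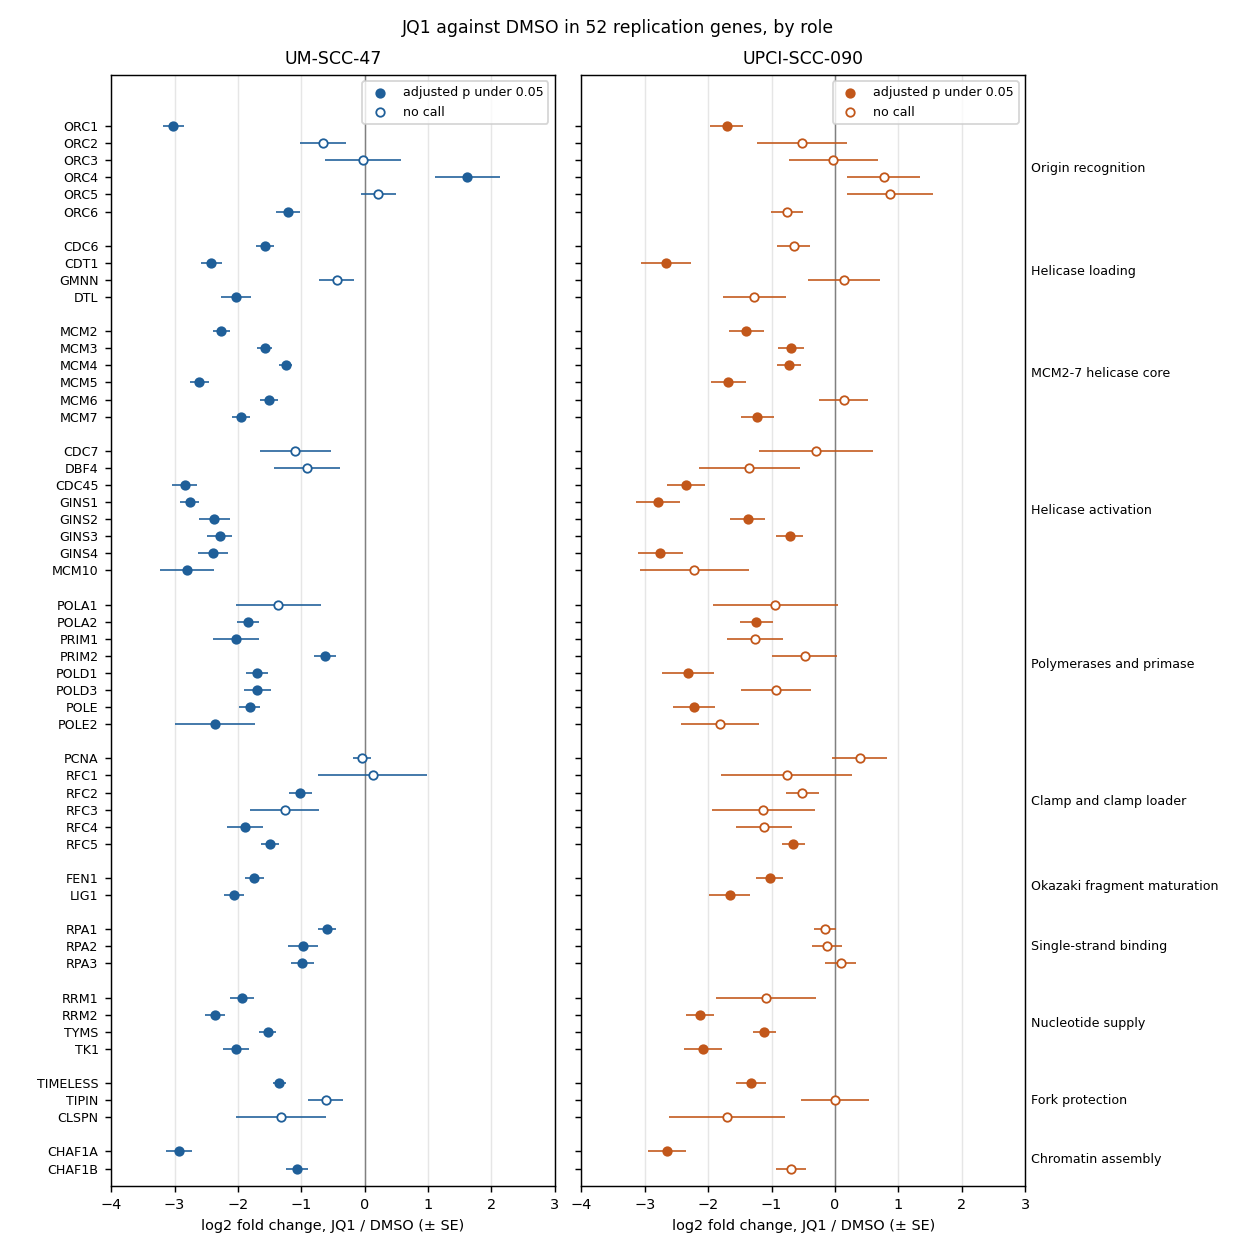
Log2 fold change of JQ1 over DMSO for the 52 genes, grouped by role, in UM-SCC-47 (left) and UPCI-SCC-090 (right). Points are edgeR estimates from 3 against 3 libraries, bars are ± SE, and filled points passed an adjusted p of 0.05. The CMG genes, FEN1, LIG1, RRM2, TK1 and CHAF1A lie left of 0 in both panels except MCM6 in UPCI-SCC-090 (0.14), and PCNA lies at −0.05 and 0.39.

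The origin recognition complex did not move as 1 block. ORC1, the large AAA+ subunit whose level cycles, had the largest fall of the whole set in UM-SCC-47, ORC6, the smallest subunit, fell in that line, and the 4 core subunits ORC2 to ORC5 were not called lower in either line. ORC1 was at 41.7, 43.5 and 40.3 CPM in the DMSO libraries of UM-SCC-47 and at 5.83, 4.92 and 4.65 CPM in the JQ1 libraries. In UPCI-SCC-090 it was at 50.8, 64.9 and 57.5 CPM with DMSO and at 16.1, 20.7 and 16.2 CPM with JQ1. No JQ1 library reached a DMSO library in either line. The log2 fold change of ORC1 was −3.02 ± 0.16 (SE, adjusted p = 0.000133) in UM-SCC-47, an 8.12-fold fall, and −1.71 ± 0.25 (SE, adjusted p = 0.00528) in UPCI-SCC-090, where it was −1.28 (adjusted p = 0.0649) without the steep libraries. For ORC6 the log2 fold change was −1.20 ± 0.19 (SE, adjusted p = 0.0035) in UM-SCC-47 and −0.75 (adjusted p = 0.0674) in UPCI-SCC-090.

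ORC4 was the 1 gene of the set called higher. Its levels in UM-SCC-47 were 10.5, 19.7 and 13.0 CPM with DMSO and 38.8, 19.2 and 75.0 CPM with JQ1, so the groups overlapped and JQ1 replicate 3 was far above the others. The log2 fold change was 1.62 ± 0.52 (SE, adjusted p = 0.045), and the call was lost in 6 of 15 alternatives (by library size alone, with the replicate block, without any 1 of the 3 DMSO libraries and without JQ1 replicate 1), with adjusted p-values from 0.00134 to 0.143 over the alternatives. The transcript of ORC4 has the lowest GC content of the set (37.4%), and its locus overlaps ACVR2A and MBD5 on the opposite strand. ORC2, ORC3 and ORC5 had log2 fold changes of −0.66 (adjusted p = 0.2), −0.03 (adjusted p = 0.971) and 0.22 (adjusted p = 0.561) in UM-SCC-47, and of −0.51, −0.02 and 0.87 in UPCI-SCC-090, none of them called. The sign of ORC3 turned with RLE scaling in both lines.

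Of the helicase loading factors, CDT1 fell in both lines, CDC6 and DTL fell in UM-SCC-47, and the CDT1 inhibitor GMNN was called in neither. CDT1, which brings MCM2 to MCM7 to the origin, was at 43.1, 51.6 and 41.0 CPM with DMSO and 8.81, 7.72 and 8.78 CPM with JQ1 in UM-SCC-47. In UPCI-SCC-090 it was at 54.0, 94.2 and 72.4 CPM and 11.6, 15.8 and 7.41 CPM. The groups lay far apart in both lines. Its log2 fold change was −2.42 ± 0.16 (SE, adjusted p = 0.000224) in UM-SCC-47 and −2.66 ± 0.39 (SE, adjusted p = 0.00512) in UPCI-SCC-090, a 6.33-fold fall, and it kept its call in UPCI-SCC-090 under every alternative that was run.

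CDC6, the ATPase that completes the loading complex with ORC, was at 155, 133 and 148 CPM with DMSO and 43.7, 55.3 and 47.4 CPM with JQ1 in UM-SCC-47, and at 107, 73.4 and 86.7 CPM and 62.3, 43.3 and 64.6 CPM in UPCI-SCC-090. JQ1 libraries were lower in both lines, and the log2 fold change was −1.57 ± 0.14 (SE, adjusted p = 0.000448) in UM-SCC-47 and −0.65 (adjusted p = 0.116) in UPCI-SCC-090. DTL, the substrate receptor that sends CDT1 for destruction in S phase, had a log2 fold change of −2.03 ± 0.24 (SE, adjusted p = 0.00118) in UM-SCC-47. In UPCI-SCC-090 DTL was at −1.27 (adjusted p = 0.104), and at −1.38 (adjusted p = 0.0247) with the replicate number as a block. The pairing in that block was taken from these data and not from the labels. DTL was called there in 5 of 15 alternatives. For GMNN the values were −0.44 (adjusted p = 0.234) and 0.14 (adjusted p = 0.887), the latter with a sign that turned by library size alone.

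All 6 subunits of the MCM2 to MCM7 ring fell in UM-SCC-47, and all but MCM6 were called lower in UPCI-SCC-090. The ring is the motor of the helicase, and its subunits are present in equal numbers in the loaded complex. The log2 fold changes ran from −1.25 (MCM4) to −2.61 (MCM5) in UM-SCC-47 and from 0.14 (MCM6) to −1.68 (MCM5) in UPCI-SCC-090, so MCM5 fell the most in both lines. MCM5 was at 277, 325 and 259 CPM with DMSO and 48.8, 50.8 and 41.6 CPM with JQ1 in UM-SCC-47, a 6.1-fold fall with a log2 fold change of −2.61 ± 0.15 (SE, adjusted p = 0.000144). The UPCI-SCC-090 libraries were at 215, 351 and 307 CPM and 87.3, 113 and 71.4 CPM, and the log2 fold change was −1.68 ± 0.28 (SE, adjusted p = 0.00708). The groups of MCM5 did not overlap in either line.

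MCM2 followed a like course, with 319.9, 365 and 299.9 CPM against 71.3, 73.5 and 60.8 CPM in UM-SCC-47 and 514, 851 and 746 CPM against 254, 337 and 212 CPM in UPCI-SCC-090. Its log2 fold changes were −2.26 ± 0.14 (SE, adjusted p = 0.000167) and −1.40 ± 0.28 (SE, adjusted p = 0.012). MCM7 was the most abundant subunit per kilobase of transcript with DMSO in both lines, at 488, 535 and 440.2 CPM against 122, 143 and 115 CPM in UM-SCC-47 and at 609, 998 and 912 CPM against 349, 437 and 291 CPM in UPCI-SCC-090. These are log2 fold changes of −1.95 ± 0.14 (SE, adjusted p = 0.000252) and −1.23 ± 0.26 (SE, adjusted p = 0.0158). The groups of MCM2 and MCM7 did not overlap.

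MCM3 was at 312, 331 and 300.1 CPM with DMSO and 105, 116 and 95.1 CPM with JQ1 in UM-SCC-47, and at 415, 539.7 and 507 CPM and 284, 354 and 266 CPM in UPCI-SCC-090. MCM4 was at 578, 631 and 568 CPM and 254, 255 and 239.9 CPM in UM-SCC-47, and at 412, 461 and 451 CPM and 254, 317 and 227 CPM in UPCI-SCC-090. Both had JQ1 libraries below all DMSO libraries in each line. In UM-SCC-47 the log2 fold changes were −1.58 ± 0.12 (SE, adjusted p = 0.000294) for MCM3 and −1.25 ± 0.11 (SE, adjusted p = 0.000401) for MCM4. In UPCI-SCC-090 they were −0.69 ± 0.20 (SE, adjusted p = 0.0442) and −0.73 ± 0.19 (SE, adjusted p = 0.0325). The calls there were lost in 11 of 15 alternatives for MCM3 and in 10 for MCM4.

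MCM6 parted from its partners in UPCI-SCC-090. In UM-SCC-47 it was at 276, 233 and 271 CPM with DMSO and 77.8, 101 and 95.5 CPM with JQ1, a log2 fold change of −1.51 ± 0.15 (SE, adjusted p = 0.000611). In UPCI-SCC-090 it was at 354, 225 and 285 CPM with DMSO and 368, 159 and 425 CPM with JQ1, and replicate 2 of each treatment was the lowest of its group. The log2 fold change there was 0.14 ± 0.39 (SE, adjusted p = 0.836), and −0.11 by library size alone. The calls of the ring in UPCI-SCC-090 changed with the libraries fitted, the scaling and the tool. All 5 held without DMSO replicate 1, without JQ1 replicate 2, with the replicate block and by library size alone. They were 0 of 6 without JQ1 replicate 1 and 1 of 6, MCM5, without DMSO replicate 3 or JQ1 replicate 3 or with RLE scaling. In these 4 settings 7.52%, 13.0%, 12.1% and 13.3% of all genes were lower, against 20.4%. DESeq2 called 1 of 6, MCM5, beside 11.3% of all genes. Upper-quartile factors, no filter and the GC correction each gave 3 of 6, beside 15.9%, 12.4% and 22.1% of all genes. The 1 fit over all libraries gave 4, beside 22.4%, and leaving out DMSO replicate 2 gave 2, beside 13.3%. The ring calls were also 0 of 6 without UPCI-SCC-090 DMSO replicate 2 and JQ1 replicate 3, when 16.5% of all genes were lower. There MCM2 was at −0.82 (adjusted p = 0.153) and MCM5 at −1.10 (adjusted p = 0.0713). In UM-SCC-47 all 6 kept their call without JQ1 replicate 3.

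Per kilobase of transcript the 6 subunits lay within 2.85 times of each other with DMSO in UM-SCC-47, from 69.3 CPM per kilobase (MCM6) to 198 (MCM7), and within 4.51 times with JQ1, from 13.6 (MCM5) to 61.4 (MCM4). In UPCI-SCC-090 the ratio of the highest to the lowest was 4.43 with DMSO, from 76.8 (MCM6) to 340.4 (MCM7), and 5.55 with JQ1, from 26.2 (MCM5) to 146 (MCM7).

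CDC45 and the 4 GINS subunits, which turn the ring into the CMG helicase, fell in both lines. In UM-SCC-47 the median over the activation class was −2.39 and that of the ring −1.76, and the difference was not tested. Over the 11 genes of CMG, 11 were lower in UM-SCC-47 (median −2.29) and 10 in UPCI-SCC-090 (median −1.38). CDC45, a cofactor of the helicase, was at 58.3, 64.2 and 53.4 CPM with DMSO and 7.08, 10.0 and 7.49 CPM with JQ1 in UM-SCC-47, and at 36.8, 53.3 and 47.8 CPM and 10.7, 8.83 and 7.37 CPM in UPCI-SCC-090. The groups were far apart in both lines, at log2 fold changes of −2.84 ± 0.19 (SE, adjusted p = 0.000224) and −2.36 ± 0.30 (SE, adjusted p = 0.00423).

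GINS1 had the largest fall of the set in UPCI-SCC-090, from 85.9, 106 and 107 CPM to 17.3, 17.3 and 8.56 CPM, a 6.92-fold fall with a log2 fold change of −2.79 ± 0.35 (SE, adjusted p = 0.00413). In UM-SCC-47 it went from 71.6, 69.7 and 64.7 CPM to 8.88, 11.4 and 10.2 CPM, at −2.76 ± 0.15 (SE, adjusted p = 0.000138). GINS4 fell in a like way, from 15.3, 15.1 and 11.6 CPM to 2.41, 2.35 and 1.44 CPM in UPCI-SCC-090 (−2.75 ± 0.35 SE, adjusted p = 0.0042) and by 5.27 times in UM-SCC-47 (−2.40 ± 0.23 SE, adjusted p = 0.000625). CDC45, GINS1 and GINS4 were the genes of CMG still called in UPCI-SCC-090 without the steep libraries.

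GINS2 and GINS3 were also called in both lines. GINS2 had log2 fold changes of −2.37 ± 0.24 (SE, adjusted p = 0.000709) and −1.38 ± 0.27 (SE, adjusted p = 0.0121) in the 2 lines. GINS3 was at 41.2, 39.1 and 39.2 CPM with DMSO and 7.45, 10.1 and 6.87 CPM with JQ1 in UM-SCC-47, and at 85.1, 117 and 109.7 CPM and 61.6, 67.7 and 61.1 CPM in UPCI-SCC-090. The groups of GINS3 did not overlap, and the log2 fold changes were −2.29 ± 0.20 (SE, adjusted p = 0.000406) and −0.71 ± 0.21 (SE, adjusted p = 0.0493). In UPCI-SCC-090 the call of GINS3 was lost in 12 of 15 alternatives and that of GINS2 in 7.

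MCM10, which helps CMG to open the origin, fell in UM-SCC-47 from 31.4, 20.8 and 34.0 CPM to 3.76, 2.17 and 6.35 CPM (−2.81 ± 0.43 SE, adjusted p = 0.00308). In UPCI-SCC-090 it was at 53.5, 19.3 and 20.5 CPM with DMSO and 8.13, 1.05 and 10.9 CPM with JQ1, a larger spread, at −2.22 (adjusted p = 0.106) and at −2.57 (adjusted p = 0.0428) with the replicate block. That block rests on a pairing taken from these data, and MCM10 was called in UPCI-SCC-090 in 5 of 15 alternatives. The kinase CDC7 and its activator DBF4 were called in neither line. CDC7 had log2 fold changes of −1.09 (adjusted p = 0.169) and −0.30 (adjusted p = 0.85), and DBF4 of −0.91 (adjusted p = 0.205) and −1.35 (adjusted p = 0.263). Both transcripts are poor in GC (38.3% and 37.7%), and in UM-SCC-47 both were called lower without JQ1 replicate 3, at −1.87 (adjusted p = 0.00183) and −1.49 (adjusted p = 0.00796).

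**Figure D2:**
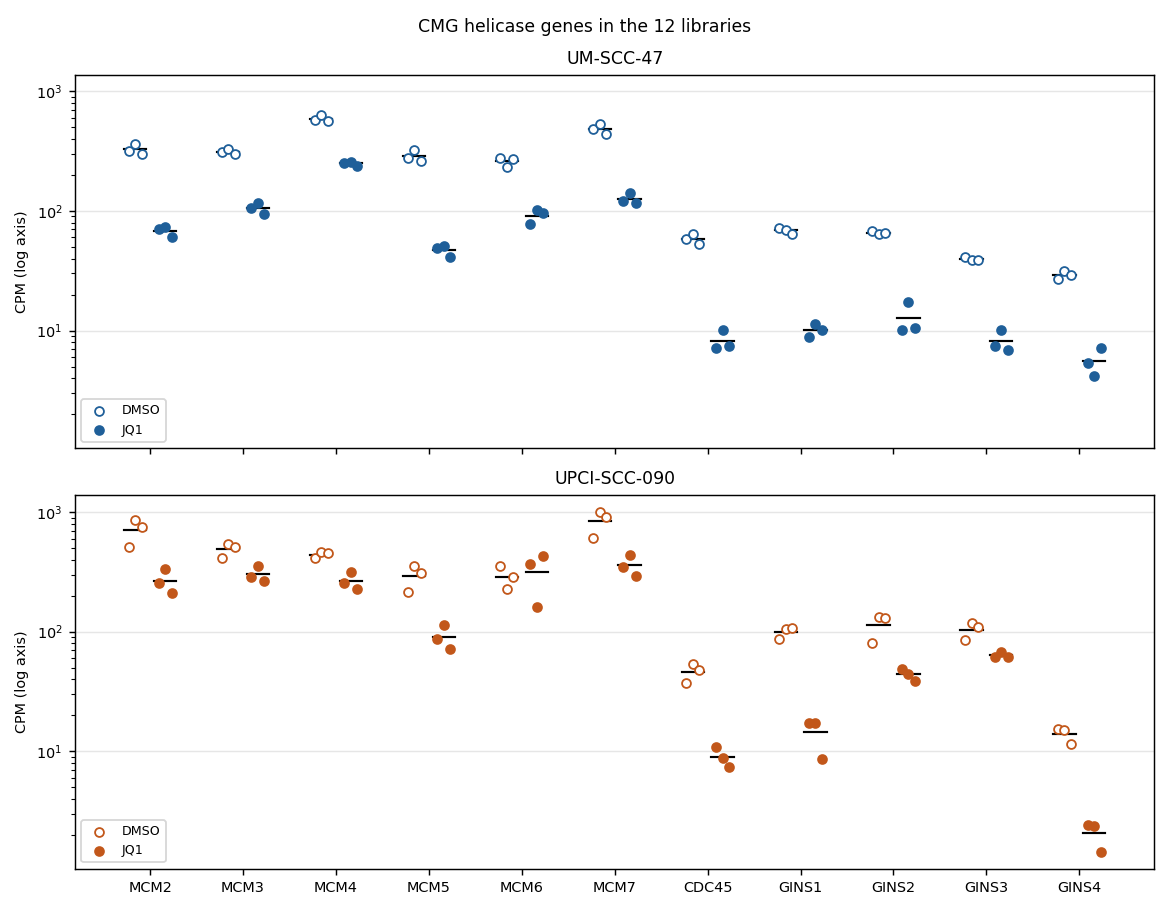
CPM on a log axis of the 11 CMG helicase genes in the 12 libraries, UM-SCC-47 above and UPCI-SCC-090 below. Open points are DMSO libraries, filled points JQ1 libraries and short lines group means (n = 3). In UM-SCC-47 the groups are apart for all 11 genes, and in UPCI-SCC-090 MCM6 is the gene whose groups overlap, with JQ1 libraries from 159 to 425 CPM.

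Of the 8 polymerase and primase genes, 7 fell in UM-SCC-47 and 3 (POLA2, POLD1 and POLE) in UPCI-SCC-090. POLE and POLD1 encode the catalytic subunits of the leading and lagging strand polymerases, POLA1 and POLA2 belong to polymerase α, and PRIM1 and PRIM2 form the primase that lays the RNA primers. POLE was at 57.5, 64.7 and 59.8 CPM with DMSO and 18.6, 14.1 and 19.0 CPM with JQ1 in UM-SCC-47, and at 132, 179 and 135 CPM and 30.9, 44.0 and 20.9 CPM in UPCI-SCC-090. POLD1 was at 92.4, 151 and 131 CPM with DMSO and 23.7, 37.1 and 14.2 CPM with JQ1 in UPCI-SCC-090. For both genes the groups were apart, with log2 fold changes in UPCI-SCC-090 of −2.22 ± 0.33 (SE, adjusted p = 0.00531) and −2.32 ± 0.41 (SE, adjusted p = 0.0086), compared with −1.81 ± 0.16 (SE, adjusted p = 0.000492) and −1.69 ± 0.18 (SE, adjusted p = 0.000747) in UM-SCC-47. POLA2 was at −1.84 ± 0.17 (SE, adjusted p = 0.000547) and −1.24 ± 0.26 (SE, adjusted p = 0.0152).

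The largest fall of this class in UM-SCC-47 was that of POLE2, the accessory subunit of polymerase ε, from 9.76, 10.9 and 10.6 CPM to 1.43, 0.572 and 4.08 CPM (−2.36 ± 0.64 SE, adjusted p = 0.0259), and its call was lost without JQ1 replicate 1 or any 1 of the DMSO libraries. PRIM1 fell there from 26.5, 36.5 and 28.7 CPM to 7.04, 4.29 and 11.1 CPM (−2.03 ± 0.36 SE, adjusted p = 0.00539). In UPCI-SCC-090 these genes were at −1.81 (adjusted p = 0.0726) and −1.26 (adjusted p = 0.0809), and at −1.88 (adjusted p = 0.0114) and −1.27 (adjusted p = 0.0326) with the replicate block. That block rests on a pairing taken from these data. POLE2 was called in UPCI-SCC-090 in 7 of 15 alternatives and PRIM1 in 5. POLD3 was called in UM-SCC-47 (−1.69 ± 0.21 SE, adjusted p = 0.00144) and not in UPCI-SCC-090 (−0.93, adjusted p = 0.268). PRIM2 was near the threshold in UM-SCC-47 (−0.62 ± 0.17 SE, adjusted p = 0.0289) and lost its call in 9 of 15 alternatives, RLE scaling among them. POLA1, at −1.36 (adjusted p = 0.154), was not called there.

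The clamp PCNA was called in neither line, while 3 of the 5 subunits of its loader, RFC2, RFC4 and RFC5, fell in UM-SCC-47 and RFC5 fell in UPCI-SCC-090. PCNA was at 257, 217 and 279 CPM with DMSO and 216, 249 and 263 CPM with JQ1 in UM-SCC-47, a log2 fold change of −0.05 ± 0.14 (SE, adjusted p = 0.806). In UPCI-SCC-090 it was at 341, 205 and 313 CPM and 428, 170.1 and 526 CPM (0.39 ± 0.43 SE, adjusted p = 0.568). The groups overlapped in both lines, and the sign in UM-SCC-47 turned with RLE scaling (0.10, adjusted p = 0.614). A p that misses the threshold does not show that PCNA was unchanged. Per kilobase of transcript PCNA was the most abundant of the 52 genes with JQ1 in both lines, at 190.2 CPM per kilobase in UM-SCC-47 and 294 in UPCI-SCC-090, and TK1 (204) and MCM7 (340.4) were so with DMSO.

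RFC5 was at 89.7, 89.4 and 89.8 CPM with DMSO and 28.3, 36.4 and 30.7 CPM with JQ1 in UM-SCC-47, and at 144, 158 and 169 CPM and 105, 90.5 and 103 CPM in UPCI-SCC-090. The groups were apart in both lines, at −1.49 ± 0.14 (SE, adjusted p = 0.000521) and −0.66 ± 0.18 (SE, adjusted p = 0.0394). In UPCI-SCC-090 the RFC5 call was lost in 11 of 15 alternatives. RFC4 fell the most of the loader in UM-SCC-47, from 49.5, 43.3 and 52.9 CPM to 11.4, 9.27 and 18.7 CPM (−1.89 ± 0.28 SE, adjusted p = 0.0029), and was at −1.11 (adjusted p = 0.111) in UPCI-SCC-090. RFC2 was at −1.02 ± 0.18 (SE, adjusted p = 0.00522) and −0.51 (adjusted p = 0.196). RFC3 (−1.26, adjusted p = 0.11) and the large subunit RFC1 (0.13, adjusted p = 0.919) were not called in UM-SCC-47. RFC1 ranged from 2.63 to 43.9 CPM among the 3 JQ1 libraries of that line, and its sign turned in other fits, to −1.16 (adjusted p = 0.111) without JQ1 replicate 3.

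Both genes of Okazaki fragment maturation fell in both lines. FEN1, the nuclease that trims flaps, was at 161, 165 and 154 CPM with DMSO and 45.1, 56.6 and 41.8 CPM with JQ1 in UM-SCC-47, and at 147, 208 and 189 CPM and 87.0, 98.6 and 80.5 CPM in UPCI-SCC-090. LIG1, the ligase that seals the nicks, was at 76.4, 89.6 and 78.0 CPM and 22.6, 16.7 and 19.1 CPM in UM-SCC-47, and at 130.1, 193 and 153 CPM and 48.3, 69.0 and 33.1 CPM in UPCI-SCC-090. No groups overlapped. The log2 fold changes of FEN1 were −1.74 ± 0.15 (SE, adjusted p = 0.000406) and −1.03 ± 0.21 (SE, adjusted p = 0.0146), and those of LIG1 −2.06 ± 0.16 (SE, adjusted p = 0.000328) and −1.66 ± 0.33 (SE, adjusted p = 0.0121). In UPCI-SCC-090 the call of FEN1 was lost in 9 of 15 alternatives and that of LIG1 in 3.

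The 3 subunits of RPA, which coat single-stranded DNA, fell in UM-SCC-47, where their median was −0.98 on the log2 scale, and 0 of 3 were called in UPCI-SCC-090, at an unadjusted p under 0.05 likewise 0. RPA1 was at 281, 284 and 261 CPM with DMSO and 169, 216 and 163 CPM with JQ1 in UM-SCC-47 (−0.59 ± 0.14 SE, adjusted p = 0.0163). RPA2 went from 111, 102 and 102 CPM to 42.5, 74.2 and 43.5 CPM (−0.98 ± 0.24 SE, adjusted p = 0.018). RPA3 went from 118, 101 and 106 CPM to 47.8, 68.7 and 47.6 CPM (−0.98 ± 0.18 SE, adjusted p = 0.00639). JQ1 replicate 2 was the highest JQ1 library for all 3 genes. The RPA log2 fold changes of UPCI-SCC-090 were −0.15 (adjusted p = 0.583), −0.13 (adjusted p = 0.745) and 0.09 (adjusted p = 0.825), with RPA3 at 42.7, 33.3 and 46.6 CPM with DMSO and 47.6, 39.5 and 43.6 CPM with JQ1. The signs of RPA1 and RPA2 turned with RLE scaling and that of RPA3 by library size alone. In UM-SCC-47 the call of RPA1 was lost in 9 of 15 alternatives, that of RPA2 in 7 and that of RPA3 in 0. RPA1 and RPA2 both lost it with RLE scaling, without JQ1 replicate 1 or 3 and without any 1 of the DMSO libraries.

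All 4 genes of nucleotide supply fell in UM-SCC-47, and all but RRM1 were called in UPCI-SCC-090. RRM2, the S-phase subunit of ribonucleotide reductase, was at 238, 209.7 and 218 CPM with DMSO and 36.5, 51.3 and 42.0 CPM with JQ1 in UM-SCC-47, and at 278, 262 and 251 CPM and 71.1, 47.6 and 61.7 CPM in UPCI-SCC-090. TK1, the thymidine kinase of the salvage pathway, was at 281, 325 and 272 CPM and 69.2, 90.1 and 55.4 CPM, and at 195, 383 and 346 CPM and 71.7, 82.8 and 64.0 CPM. The groups were apart in both lines, at log2 fold changes of −2.36 ± 0.16 (SE, adjusted p = 0.000224) and −2.13 ± 0.22 (SE, adjusted p = 0.0037) for RRM2 and of −2.03 ± 0.20 (SE, adjusted p = 0.000661) and −2.08 ± 0.30 (SE, adjusted p = 0.00509) for TK1. TYMS, which makes dTMP, was at −1.53 ± 0.13 (SE, adjusted p = 0.000386) and −1.11 ± 0.18 (SE, adjusted p = 0.00674). RRM1, the large subunit of the reductase, was at −1.94 ± 0.19 (SE, adjusted p = 0.000631) in UM-SCC-47. In UPCI-SCC-090 its libraries spread from 25.0 to 419 CPM, at −1.08 (adjusted p = 0.367) and at −1.30 (adjusted p = 0.0398) with the replicate block. The block, whose pairing was taken from these data, was the 1 alternative of 15 that called RRM1 there.

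Of the fork protection genes, TIMELESS fell in both lines, and its partner TIPIN and the checkpoint mediator CLSPN were not called. TIMELESS was at 147, 159 and 141 CPM with DMSO and 60.4, 57.3 and 58.1 CPM with JQ1 in UM-SCC-47, and at 291, 398 and 347 CPM and 139.6, 167 and 107 CPM in UPCI-SCC-090. Its groups were apart, at −1.35 ± 0.11 (SE, adjusted p = 0.00034) and −1.33 ± 0.24 (SE, adjusted p = 0.00905). TIPIN was low, at 3.20 to 8.71 CPM in UM-SCC-47 and 4.29 to 15.2 CPM in UPCI-SCC-090, and was at −0.61 (adjusted p = 0.126) and −0.0027 (adjusted p = 0.998). CLSPN was at 20.7, 12.9 and 24.4 CPM with DMSO and 5.87, 1.83 and 15.6 CPM with JQ1 in UM-SCC-47 (−1.32, adjusted p = 0.186), where JQ1 replicate 3 was the one that reached the DMSO range. Without that library it was at −2.19 (adjusted p = 0.00865). The UPCI-SCC-090 values of CLSPN were 51.1, 14.0 and 13.6 CPM and 7.25, 1.5 and 15.4 CPM, at −1.70 (adjusted p = 0.222), and at −2.58 (adjusted p = 0.023) without the steep libraries.

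CHAF1A and CHAF1B, subunits of the chromatin assembly factor that places histones behind the fork, fell in UM-SCC-47, and CHAF1A fell in UPCI-SCC-090. CHAF1A was at 31.2, 35.8 and 31.3 CPM with DMSO and 4.7, 3.38 and 4.86 CPM with JQ1 in UM-SCC-47, a 7.58-fold fall (−2.92 ± 0.21 SE, adjusted p = 0.000245). The UPCI-SCC-090 values were 106, 133 and 99.1 CPM and 18.6, 22.7 and 12.6 CPM, a 6.26-fold fall (−2.65 ± 0.30 SE, adjusted p = 0.00379). CHAF1B was at 16.1, 17.8 and 14.3 CPM and 7.3, 8.3 and 7.39 CPM in UM-SCC-47 (−1.07 ± 0.17 SE, adjusted p = 0.00345), and at 48.7, 65.2 and 56.5 CPM and 33.3, 39.3 and 32.7 CPM in UPCI-SCC-090 (−0.69, adjusted p = 0.0728). The groups of both genes were apart in both lines.

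The lines were compared through the line-by-treatment term of a joint fit to all 12 libraries. The response of 6 of the 52 genes differed between the lines, each with a higher log2 fold change in UPCI-SCC-090, and 0 differed in the other direction. Over all 14396 genes 2.93% were called in the first direction and 3.63% in the second. At an unadjusted p under 0.05 the count in either direction was 13, and the share of all genes at that threshold is not given here. For 44 of the 52 genes the estimate was above 0. The 6 genes were GINS3 (difference of log2 fold changes 1.68 ± 0.33 SE, adjusted p = 0.0121), MCM6 (1.71 ± 0.38 SE, adjusted p = 0.0216), ORC1 (1.42 ± 0.35 SE, adjusted p = 0.032), RPA3 (1.17 ± 0.30 SE, adjusted p = 0.0415), CDC6 (1.01 ± 0.27 SE, adjusted p = 0.0448) and RFC5 (0.93 ± 0.25 SE, adjusted p = 0.0461). On GRCh37 they lie at chr16:58328984-58440051, chr2:136597196-136634013, chr1:52838501-52870095, chr7:7676149-7758238, chr17:38444131-38460909 and chr12:118451393-118470935.

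These 6 come from origin recognition, helicase loading, the ring, its activation, the clamp loader and RPA. GINS3, ORC1 and RFC5 were called lower in both lines, and the other 3 in UM-SCC-47 alone. In UPCI-SCC-090 the JQ1 calls of GINS3, RFC5 and ORC1 were lost in 12, 11 and 2 of 15 alternatives. For the difference between the lines, GINS3 was the 1 gene called under every alternative, with adjusted p-values up to 0.0462. The calls of this difference were lost in 15 or 16 of 20 alternatives for CDC6, RFC5 and RPA3, and in 8 for ORC1 and MCM6. Without the 3 steep libraries 2 genes, ORC1 and GINS3, were called. With a correction for GC content 12 were, 5 of the 6 and MCM2, MCM3, MCM5, MCM7, FEN1, LIG1 and POLA2, while the shares of all genes rose to 8.07% in the first direction and 9.5% in the second. Leaving out single libraries gave 1 to 6 genes, and 1 without UM-SCC-47 DMSO replicate 1 or 3, UM-SCC-47 JQ1 replicate 1, UPCI-SCC-090 DMSO replicate 3 or UPCI-SCC-090 JQ1 replicate 1. With the replicate block RFC5 and RPA3 lost their calls. No difference was called for CDT1 (−0.11, adjusted p = 0.956), GINS1 (0.10, adjusted p = 0.956), TK1 (0.05, adjusted p = 0.983) or TIMELESS (0.14, adjusted p = 0.9).

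**Figure D3:**
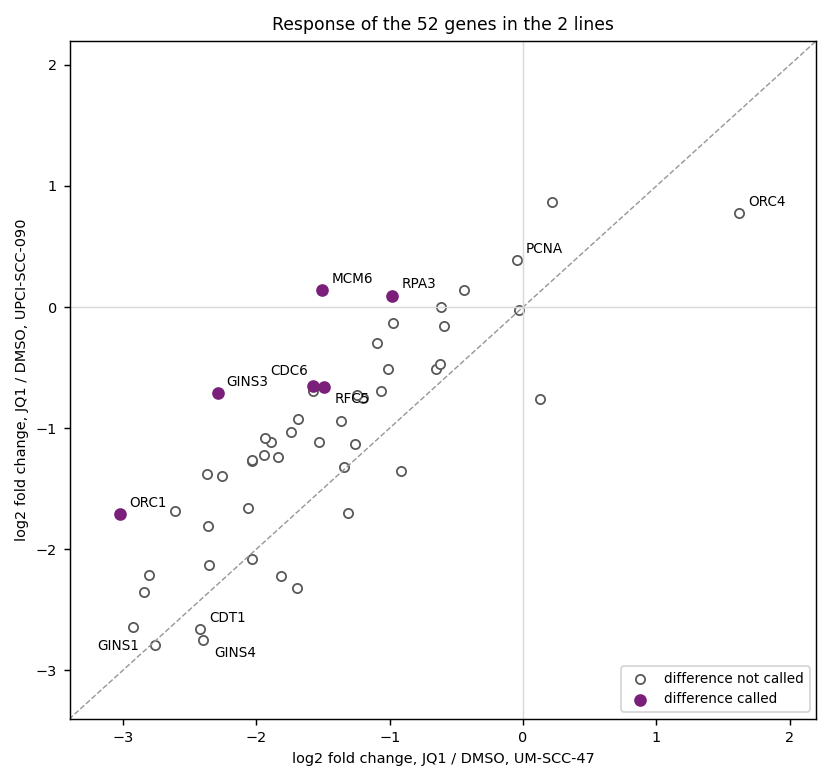
Log2 fold change of JQ1 over DMSO in UM-SCC-47 (horizontal axis) against UPCI-SCC-090 (vertical axis) for the 52 genes, with the line of equal response dashed. Filled points are the 6 genes whose response differed between the lines by the interaction test. All 6 lie above the dashed line, MCM6 at −1.51 and 0.14, and GINS3 at −2.29 and −0.71.

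With DMSO alone, 14 of the 52 genes were higher in UPCI-SCC-090, relative to UM-SCC-47, and 4 were lower, where 22.7% of all 14108 genes tested were higher and 25.3% lower, so that the share of the set was near the background in the first direction and below it in the second. The 2 chromatin assembly genes differed the most upwards, CHAF1B by 1.67 ± 0.21 (SE, adjusted p = 0.000485) and CHAF1A by 1.63 ± 0.18 (SE, adjusted p = 0.000265) on the log2 scale. Next were GINS3 (1.24 ± 0.18 SE, adjusted p = 0.00104), POLE (1.14 ± 0.18 SE, adjusted p = 0.00136) and TIMELESS (1.06 ± 0.17 SE, adjusted p = 0.00165). The others higher in UPCI-SCC-090 were RPA2, MCM2, LIG1, RFC2, RFC5, GINS2, RFC4, MCM7 and MCM3, by 0.48 to 0.96. The 4 that were lower were RPA3 (−1.55 ± 0.20 SE, adjusted p = 0.000475), GINS4 (−1.21 ± 0.21 SE, adjusted p = 0.00254), CDC6 (−0.85 ± 0.19 SE, adjusted p = 0.00757) and MCM4 (−0.57 ± 0.14 SE, adjusted p = 0.0134). The line and any batch of the lines cannot be told apart. The count of higher genes was 31 with a GC correction, 7 without UM-SCC-47 DMSO replicate 1 or 3 and 24 without UPCI-SCC-090 DMSO replicate 1. Over all genes 38.7%, 15.4% (without either library) and 33.4% were higher under these settings.

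Subunits of the same complex differed in both directions. The levels were scaled within each line and are not on a common scale between the lines, so the tested differences are those given above. RPA2 was at 66.4 CPM per kilobase with DMSO in UM-SCC-47 and 143 in UPCI-SCC-090, and RPA3 at 53.4 and 20.2. The highest of the 3 RPA subunits was 1.24 times the lowest in UM-SCC-47 and 7.09 times in UPCI-SCC-090. GINS4 and GINS3 differed likewise, with 27.1, 31.2 and 29.2 CPM for GINS4 in UM-SCC-47 and 15.3, 15.1 and 11.6 CPM in UPCI-SCC-090, and 41.2, 39.1 and 39.2 CPM and 85.1, 117 and 109.7 CPM for GINS3. MCM6, ORC1, TYMS and PCNA had differences between −0.01 and 0.32 that were not called.

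The error of a gene's log2 fold change moved with the GC content of its transcript. Of the 26 genes below the median GC of the set (45.3%), 13 were called lower in UM-SCC-47 and 3 in UPCI-SCC-090, and of the 26 genes at or above it 26 and 20. The median SE of the log2 fold change was 0.28 in the GC-poor genes and 0.17 in the others in UM-SCC-47, and 0.57 and 0.26 in UPCI-SCC-090. The median log2 fold changes were −1.34 and −1.83 in UM-SCC-47 and −0.84 and −1.28 in UPCI-SCC-090. After the GC correction they were −1.35 and −1.47 in UM-SCC-47 and −0.90 and −0.80 in UPCI-SCC-090, and 18 and 25 genes were called lower in UM-SCC-47 and 12 and 17 in UPCI-SCC-090. With that correction 22.5% of all genes were lower and 29.9% higher in UM-SCC-47, and 22.1% and 29.0% in UPCI-SCC-090. Across the 52 genes transcript GC and the SE had rho = −0.58 and −0.60, and transcript GC and the log2 fold change had r = −0.46 and −0.50, over points that share their libraries.

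The 12 genes called in neither line, ORC2, ORC3, ORC5, GMNN, CDC7, DBF4, POLA1, PCNA, RFC1, RFC3, TIPIN and CLSPN, were all among the 26 GC-poor genes. The spread was largest for RFC1 in UPCI-SCC-090, at 44.8, 7.36 and 19.5 CPM with DMSO and 5.96, 2.84 and 33.5 CPM with JQ1. POLA1 was at 37.3, 6.63 and 16.1 CPM and 7.63, 1.54 and 22.2 CPM there. In both genes DMSO replicate 2 was the lowest DMSO library and JQ1 replicate 2 the lowest JQ1 library, and JQ1 replicate 3 the highest JQ1 library. Without UPCI-SCC-090 DMSO replicate 2 and JQ1 replicate 3 they were at −2.58 (adjusted p = 0.00699) and −2.25 (adjusted p = 0.03). PCNA (43.5% GC) differed from these in UM-SCC-47, where its SE was 0.14.

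**Figure D4:**
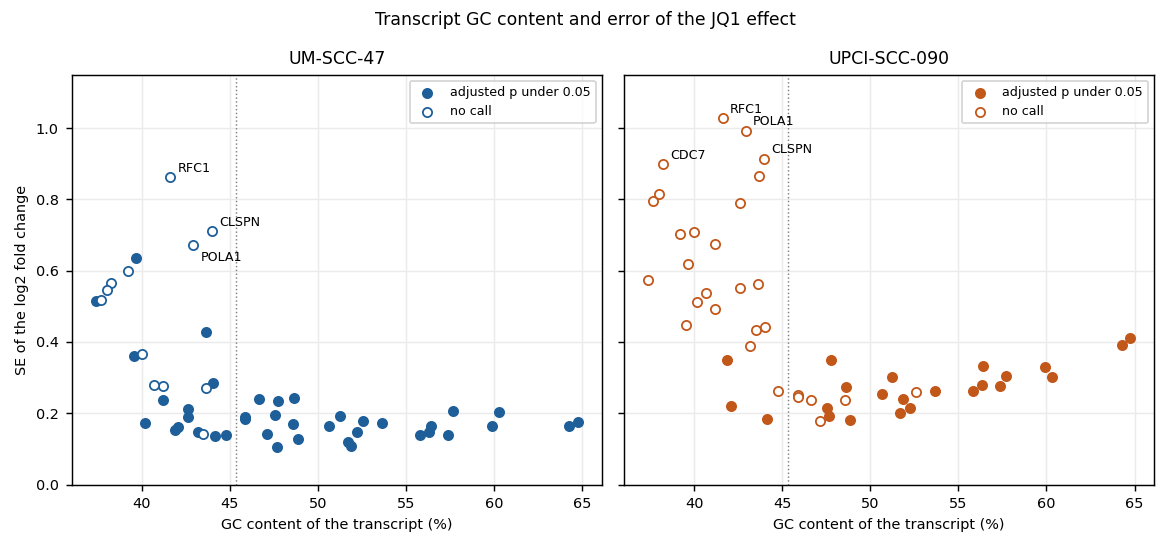
SE of the log2 fold change of JQ1 over DMSO against the GC content of the canonical transcript for the 52 genes, in UM-SCC-47 (left) and UPCI-SCC-090 (right). Filled points passed an adjusted p of 0.05, and the dotted line is the median GC content (45.3%). Genes without a call gather at low GC, with SEs up to 0.86 for RFC1 in UM-SCC-47 and 1.03 in UPCI-SCC-090.

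Of 42 further replication genes outside the set, 17 fell and 3 rose in UM-SCC-47 (median −0.82), and 9 fell and 0 rose in UPCI-SCC-090 (median −0.72). The share in UPCI-SCC-090 is near the 20.4% of all genes called lower there, and the 25.5% of UM-SCC-47 stands beside 17 of 42. At an unadjusted p under 0.05, 24 and 12 genes passed in either direction, and the share of all genes at that threshold is not given here. The largest falls were those of origin firing factors and a fork repair factor. TICRR, which brings CDC45 to the ring, was at −3.45 ± 0.33 (SE, adjusted p = 0.000576) in UM-SCC-47 and −3.92 ± 0.39 (SE, adjusted p = 0.0037) in UPCI-SCC-090. DBF4B, the alternative activator of CDC7, was at −3.93 ± 0.22 (SE, adjusted p = 0.000144) and −3.62 ± 0.32 (SE, adjusted p = 0.0037), the helicase RECQL4 at −2.95 ± 0.19 (SE, adjusted p = 0.000187) and −3.76 ± 0.45 (SE, adjusted p = 0.00403), and TONSL, which binds new histones at damaged forks, at −2.43 ± 0.19 (SE, adjusted p = 0.000325) and −3.29 ± 0.40 (SE, adjusted p = 0.00408). MTBP, the partner of TICRR, was at −2.91 ± 0.71 (SE, adjusted p = 0.0175) in UM-SCC-47. The 3 that rose in UM-SCC-47 were RRM2B, the p53-inducible subunit of ribonucleotide reductase (3.41 ± 0.88 SE, adjusted p = 0.0224), POLE4 (0.98 ± 0.24 SE, adjusted p = 0.0195) and RNASEH2C (0.97 ± 0.22 SE, adjusted p = 0.0134).

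Of 16 genes of cell cycle entry outside the set, 11 were lower, 1 was higher and 4 were not called in UM-SCC-47, and 9 were lower, 1 was higher and 6 were not called in UPCI-SCC-090, beside 25.5% and 20.4% of all genes lower. CCNE2, RB1 and RBL1 were called in neither line, CCNE1 was called in UPCI-SCC-090 alone, and E2F3, E2F7 and CDKN1B in UM-SCC-47 alone. MKI67, a marker of cycling cells, was at −5.47 ± 1.02 (SE, adjusted p = 0.0064) in UM-SCC-47 and −6.29 ± 1.07 (SE, adjusted p = 0.0075) in UPCI-SCC-090, the E2F activators E2F1 at −1.71 ± 0.18 (SE, adjusted p = 0.000775) and −1.83 ± 0.32 (SE, adjusted p = 0.00827) and E2F2 at −4.94 ± 0.27 (SE, adjusted p = 0.000133) and −3.89 ± 0.48 (SE, adjusted p = 0.00408), and CCNA2, the S-phase cyclin, at −3.86 ± 0.43 (SE, adjusted p = 0.000934) and −2.75 ± 0.59 (SE, adjusted p = 0.0159). CDKN1A, the inhibitor p21, rose in both lines, by 2.94 ± 0.18 (SE, adjusted p = 0.000168) and 3.80 ± 0.27 (SE, adjusted p = 0.00323). MYC fell in both, at −0.94 ± 0.14 (SE, adjusted p = 0.00302) and −1.43 ± 0.26 (SE, adjusted p = 0.01). Their part in the fall of the replication genes was not tested.

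Of the 52 genes, 16 overlap another protein-coding gene in GENCODE 44, and no source read here says whether the counting used strand. For ORC4, DTL, MCM7, DBF4, GINS1, GINS2, PRIM1, RFC4, RFC5, RPA1, RPA3, TYMS and CHAF1A an overlapping gene lies on the opposite strand, for example ENOSF1 at TYMS and AP4M1 at MCM7, so the counts of these genes are less certain.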

How the data were processed

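Ribosomal RNA-depleted total RNA libraries of UM-SCC-47 and UPCI-SCC-090 were quantified by the authors with Salmon, of which version 0.8.2 is named, beside DESeq2 1.28.0, in the notes on processing from the submitters. The deposited values are estimated counts per gene for 20738 genes in 12 libraries, with 1 column per library. The genome build and index are not stated in any source read here, and 0 columns of other samples were present. Estimated counts were rounded to whole numbers. Genes were named by Ensembl ID from GENCODE 44 lifted to GRCh37 (20015 matched, 723 did not).

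Each line was fitted alone with edgeR 4.0.16 (R 4.3.3, limma 3.58.1), after filterByExpr with a minimum count of 10 and a minimum total of 15, by TMM factors and glmQLFTest with Benjamini-Hochberg adjustment over all genes tested. The threshold was an adjusted p of 0.05. The difference between the lines was the interaction term of 1 fit over all 12 libraries, and the untreated lines were compared on the 6 DMSO libraries. Standard errors (SE) are unsigned log2 fold changes over the root of the F statistic. Totals of 20349275 to 30788657 estimated counts limit the precision of genes of few CPM. The main edgeR fit of each comparison was tested on simulated counts. Intervals of counting error were not needed, since no share of a single sample is reported.

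Alternatives were RLE, upper-quartile and library-size scaling, no filter, DESeq2 1.42.0, a replicate block, 1 fit over all libraries, a fold rule, single libraries left out, the 3 libraries with the steepest GC trends left out, and a GC correction (loess offsets, span 0.5, over the 96.51% of genes with a GC value). The main fits, with their counts, p-values and SEs, did not pair the samples. In UPCI-SCC-090 the deviations of same-numbered DMSO and JQ1 libraries from their group means had correlations of 0.11, 0.84 and 0.24, all above 0.1. The numbers were therefore taken as pairing the samples there, in the replicate block alone. This rests on the data, not on the labels, and DMSO replicate 1 had a higher correlation with JQ1 replicate 3 (0.86) than any same-numbered pair. Whether GC trends underlie these correlations was not tested.

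The members and gene lists were chosen with earlier results of these data known. Values in every library were to be given for the called gene with the largest change in each role and line, genes called against their class, genes called between the lines, MCM2 to MCM7 and roles of 3 or fewer genes, and up to 4 further replication genes per line and direction with at least 5 CPM were named. The library values of GINS4, MCM10, POLE in UM-SCC-47, PRIM1, POLA1, PCNA, RFC1, TK1 and the range of RRM1 were added after their values were seen. Promoter windows were RefSeq, GRCh38.p14. MCM4, MCM5, GINS4, RPA2, RPA3 and POLD3 were named only.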

Additional observations from a re-analysis of the deposited data

Results flagged for a closer look

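The response to JQ1 differed between UM-SCC-47 and UPCI-SCC-090 by the interaction term (edgeR, adjusted p under 0.05) for 6 genes of the set and 1 further replication gene, always with the value in UPCI-SCC-090 above that in UM-SCC-47. The differences of the log2 fold changes were 1.42 for ORC1 (adjusted p 0.000931 to 0.0904 over 20 alternatives), 1.01 for CDC6 (0.0196 to 0.213), 1.71 for MCM6 (0.00169 to 0.0982), 1.68 for GINS3 (0.00315 to 0.0462), 0.93 for RFC5 (0.0165 to 0.232) and 1.17 for RPA3 (0.0253 to 0.151). DUT, which keeps uracil out of the nucleotide pool, had a difference of 1.07. The directions of the 6 genes of the set were kept in all 20 alternatives.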

How the results depend on the processing

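In UM-SCC-47, 35 of the 40 calls held in every alternative other than the fold rule, which RPA3, among the 35, did not pass. When single libraries were left out, 35 to 43 genes were lower and 0 to 1 higher. Over all genes 17.9% to 27.2% were then lower and 8.87% to 22.2% higher. The 1 higher gene, ORC4, was lost (0 called) by library size alone and with the replicate block. In UPCI-SCC-090, 7 of the 23 calls held in every alternative (CDT1, CDC45, GINS1, GINS4, RRM2, TK1 and CHAF1A). The count of lower genes there was 11 with RLE and 14 with DESeq2, and 7 to 23 without single libraries, where 13.3%, 11.3% and 7.52% to 20.6% of all genes were lower. With the GC correction 1 gene, ORC5, was higher, as were 29.0% of all genes. The count of genes that differed between the lines was 2 with RLE, 3 with upper-quartile factors, 3 without the filter, 3 with DESeq2, 12 with the GC correction, 2 without the steep libraries and 1 to 6 without single libraries. In the same order 2.25%, 2.47%, 1.95%, 2.38%, 8.07%, 2.06% and 1.38% to 4.45% of all genes were called higher for this difference, against 2.93% in the main fit. Between the untreated lines 2 genes were lower and 5 higher with an absolute log2 fold change over 1, where 20.7% and 16.4% of all genes were. With the GC correction 31 were higher, beside 38.7% of all genes, and without single libraries 7 to 24, beside 15.4% to 33.4%. The cause of these changes was not tested.

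With the replicate block 28 genes were lower in UPCI-SCC-090, 23 of them those called without it, and the share of all genes was 23.9% against 20.4%. In UM-SCC-47, where the same-numbered libraries had correlations of −0.23, 0.23 and 0.55 and share only a number, the block gave 43 lower genes. Over all genes 25.7% were lower with the block there.

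Signs turned only for log2 fold changes that were not called. In UM-SCC-47 these were ORC3 (0.084 with RLE, 0.094 with DESeq2, −0.53 to 0.44 without single libraries), ORC5 (−0.032 by library size, −0.0047 to 0.42), PCNA (0.10 with RLE, 0.12 with DESeq2, 0.13 with the GC correction, 0.024 without the steep library, −0.14 to 0.036) and RFC1 (−0.091 by library size, −0.60 with the replicate block, −0.095 with the GC correction, −1.16 without the steep library, −1.16 to 0.65). In UPCI-SCC-090 they were ORC3 (0.25 with RLE, 0.074 without the filter, 0.27 with DESeq2, 0.035 in 1 fit over all libraries, 0.11 with the GC correction, −0.69 to 0.38), GMNN (−0.12 by library size, −0.22 without the steep libraries, −0.14 to 0.57), MCM6 (−0.11 by library size, −0.0060 to 0.50), CDC7 (−1.38 to 0.37), RFC1 (−2.30 to 0.068), RFC2 (0.034 without the steep libraries), RPA1 (0.13 with RLE, 0.15 with DESeq2, 0.039 with the GC correction, 0.12 without the steep libraries, −0.23 to 0.0066), RPA2 (0.16 with RLE, 0.024 without the filter, 0.17 with DESeq2, 0.062 with the GC correction, 0.29 without the steep libraries, −0.32 to 0.10), RPA3 (−0.13 by library size, −0.032 to 0.26) and TIPIN (0.26 with RLE, 0.098 without the filter, 0.27 with DESeq2, 0.057 in 1 fit over all libraries, −0.40 to 0.37).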
